A study of Homo sapiens with 6 samples.

Results

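The enzymes that make purine and pyrimidine nucleotides, their deoxy forms and the polyamines were examined in THP1 cells, a human acute monocytic leukemia line, after exposure to Withaferin A (WFA), a steroidal lactone from Withania somnifera. The 34 genes were taken by symbol from a table of 26485 genes. They comprise 12 purine, 5 pyrimidine, 7 dNTP, 2 folate, 4 salvage and 4 polyamine enzymes, and all 34 passed the filter on low counts. The control cells received DMSO, the vehicle, and each group had 3 libraries from independent experiments, collected after 6 h. The labels give the WFA dose as 1 mM and the study's methods as 1 μM. Both groups were THP1 cells grown with serum, with no genetic change named in the labels, so the comparison covers a single cell line.

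Purine rings are built stepwise on phosphoribosyl pyrophosphate (PRPP) until inosine monophosphate (IMP), from which AMP and GMP branch. The pyrimidine ring is instead completed first and then joined to PRPP, giving UMP and later CTP. Ribonucleotide reductase turns ribonucleotides into the deoxynucleotides used for DNA, folate carries the one-carbon units that purines and thymidylate need, and salvage enzymes recycle ready-made bases and nucleosides. Polyamines are small cations made from ornithine and S-adenosylmethionine that bind nucleic acids. Proliferating leukemia cells draw on all of these pathways, and several of the enzymes are targets of drugs used against blood cancers.

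WFA lowered most of the synthesis enzymes and left most of the salvage enzymes without a detected change. Of the 34 members, 26 were lower with WFA and 0 were higher when the p-values of edgeR's quasi-likelihood test, adjusted over all genes, were held to 0.05. Among all 12854 genes tested, 24.7% were called lower and 25.8% higher. The members were chosen with earlier results of these data known, so the comparison with these shares is a description and not a test. At an unadjusted p-value under 0.05 the counts were 28 lower and 0 higher, against 27.5% and 28.5% of all genes. DESeq2's Wald test called 27 members lower and 0 higher, against 16.8% and 16.1% of the 18328 genes given to it. That set was not filtered on low counts, whereas all 34 members passed the filter, so these shares are not comparable with those of the 12854 genes. The median log2 fold change of the members was -0.63, against 0.02 for all genes tested. Among the called members SMS moved least and fell by 20.1%, and DHODH fell by 76.0%. More than 2-fold falls were found for 8 members, namely PPAT, PFAS, CAD, DHODH, UMPS, CTPS1, RRM2 and DCTPP1, while 5.2% of all genes tested fell that far. In 25 members all 3 WFA libraries lay below all 3 DMSO libraries, and in 0 members they lay above. The shares for all genes tested were 28.5% and 29.6%. With the replicate number as a block, 28 members were lower and 2, NME2 and HPRT1, were higher, against 28.8% and 30.2% of all genes in that fit.

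**Figure D1:**
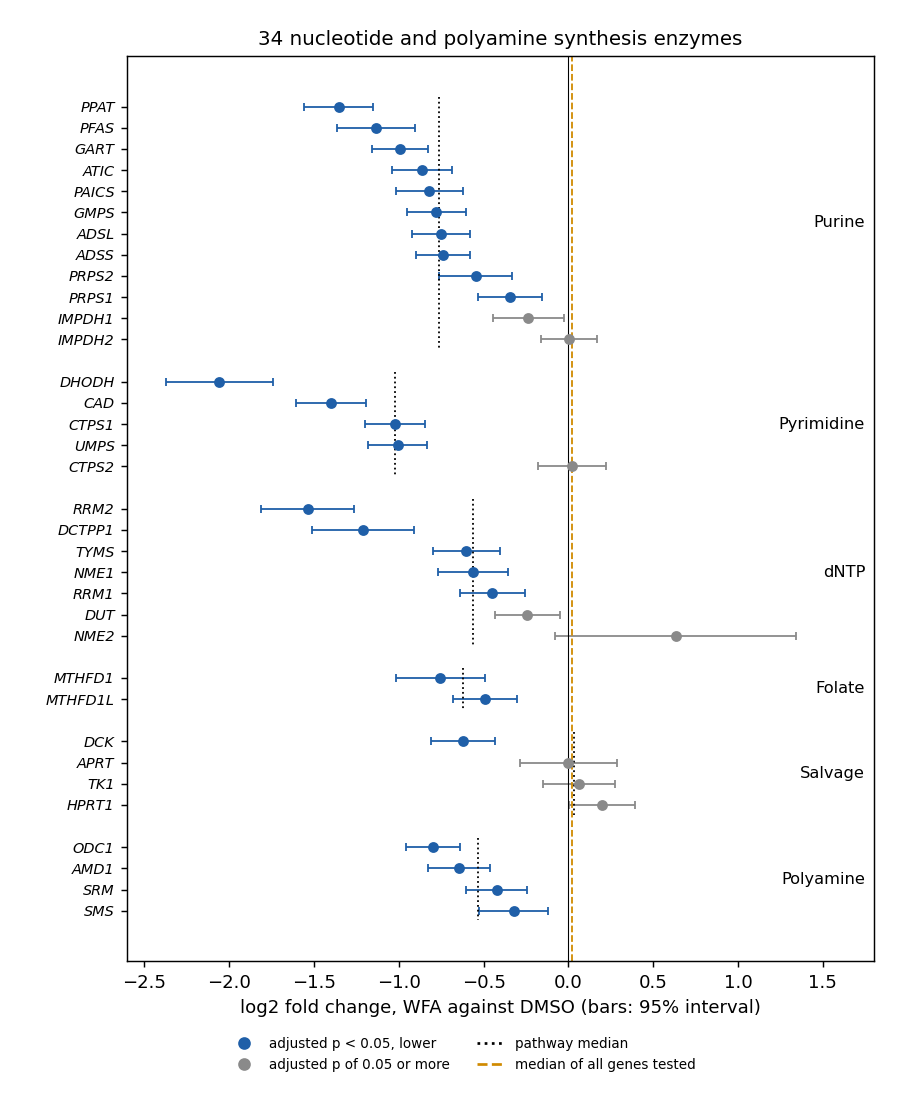
Log2 fold change of each enzyme between WFA and DMSO (x axis), grouped by pathway, with bars for the 95% interval (normal approximation). Blue points passed an edgeR adjusted p-value of 0.05 and grey points did not, dotted lines mark the pathway medians, and the dashed line marks the median of all genes tested (0.02). The purine, pyrimidine, dNTP, folate and polyamine medians lie left of 0, and the salvage median lies at 0.03.

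The depth of the falls is given next by pathway. Pyrimidine enzymes had the lowest median log2 fold change (-1.02), followed by purine (-0.76), folate (-0.62), dNTP (-0.56) and polyamine enzymes (-0.54), and the salvage median was 0.03. Pyrimidine was lowest, purine next and salvage highest under all 12 alternative settings, whereas the order of folate, dNTP and polyamine enzymes held in 8 of them. In the pairs of replicates 1, 2 and 3, the pyrimidine median was -1.07, -1.02 and -1.19 and the purine median -0.72, -0.73 and -0.85. The salvage median was -0.35 in the first pair and 0.18 and 0.15 in the others, so its sign was not shared. Summed over its enzymes, the pyrimidine pathway had between 911 and 1024 CPM (counts scaled to a common library size with TMM factors) in the DMSO libraries and between 456 and 477 in the WFA libraries. CTPS1 made up most of the pyrimidine sum, with a mean of 720 of 955 CPM with DMSO and 354.5 of 469.6 with WFA. The salvage sum overlapped between the groups, at 319 to 382 and 306 to 338 CPM. These are descriptions, since enzymes of a pathway are not replicates, and the difference between pathways was not tested.

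All 26 called members were lower in each of the 3 same-numbered pairs, and 15 of them fell furthest in the pair of replicate 3. The calls came from these same libraries, so the shared direction largely follows from them and is no separate support. The same counts were not taken over all called genes. Within the DMSO group the median coefficient of variation was 7.36%, from 1.93% for ODC1 to 28.5% for NME2. It was 9.61% within the WFA group, where PPAT varied least (1.15%) and NME2 most (56.2%). WFA replicate 3 was the lowest of the 3 WFA libraries for 24 of the 34 members and the lowest of all 6 libraries for 21. Leaving that library out gave 25 members called lower and 1, HPRT1, called higher, against 21.6% and 22.6% of all genes.

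**Figure D2:**
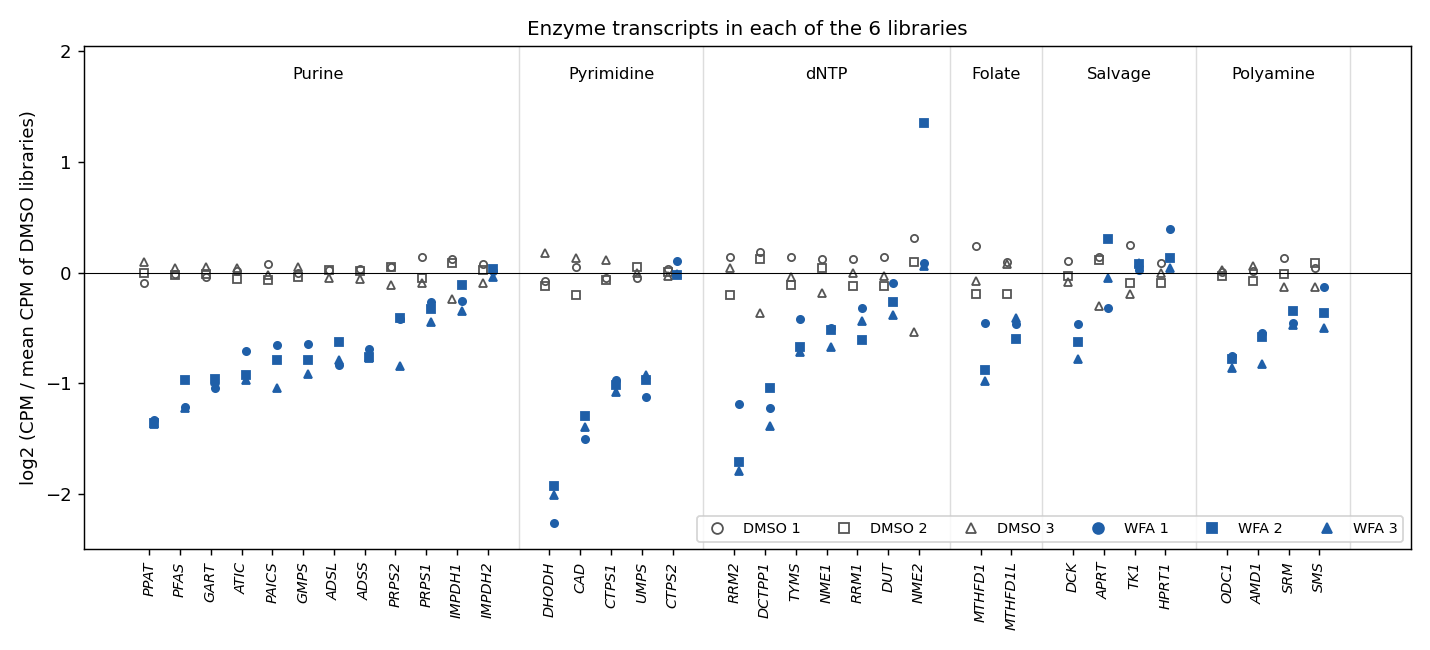
Level of each enzyme in each of the 6 libraries (y axis), as log2 of its CPM divided by the mean CPM of the 3 DMSO libraries. Open symbols are DMSO and filled symbols WFA, with circles, squares and triangles for replicates 1, 2 and 3. Filled symbols lie below all open symbols for 25 of the 34 enzymes.

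Total counts ranged from 11006035 to 13872810 per library, and replicates of a group differed by more than sampling noise (chi-square per gene between 5.98 and 11.1). All 10 myeloid markers examined had more than 10 counts in each library, with a summed level of 2550 to 3090 CPM with DMSO and 2330 to 3120 with WFA. Of these markers 4 were called lower, CD33 (log2 fold change -0.85), CD14 (-1.22), CSF1R (-0.40) and SPI1 (-0.34), and 1 higher, CD68 (0.37), and LYZ made up more than any other marker of the sum. Erythroid markers had no count. Lymphoid and epithelial markers summed to at most 2.01 CPM in any library. Of the 3 fibroblast markers, COL1A2 was at 0 throughout, whereas COL1A1 had 3, 4 and 10 counts with DMSO and 107, 106 and 135 with WFA, and its part in the results was not tested. In bulk RNA, fewer cells with a transcript and less transcript per cell cannot be told apart.

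Sequences just upstream of the enzymes' start sites were searched for 5 short motifs on both strands. The window was RefSeq's 250 bases before and 50 after the start (GRCh38.p14), and 32 members had an entry. ADSL and IMPDH2 had none. For the 12 members with more than 1 start in the table the first listed was used. The motif CACGTG, the E-box to which MYC and MAX bind, stood in 9 of the 32 windows, or 28.1%, against 10.2% of the windows of genes tested and 7.43% of all windows in the table. Those 9 genes, PPAT, ATIC, DHODH, DCTPP1, NME1, MTHFD1, MTHFD1L, DCK and SRM, were all among the called members, and their median was -0.75 (log2 fold change). The 23 other members searched had a median of -0.60, and 16 of them were called. How many of all tested genes with the motif were called lower was not counted, so these calls have no background share. With every listed window, chosen after seeing the data, PAICS and ODC1 also held the motif, giving 11 of 32 members (34.4%) against 12.6% of genes tested. MYC itself had 158, 166 and 179 CPM with DMSO and 36.4, 38.9 and 33.2 with WFA, and its log2 fold change was -2.21 with a standard error (SE) of 0.09 (edgeR adjusted p = 2.49e-10). Whether MYC had a part in the enzymes' falls was not tested. The E-boxes that lie upstream of the start used are printed in capitals within the bases around them, 5′ to 3′ on the gene's strand, because they sit in genes of every pathway examined.
PPAT (chr4:56435765-56435824, minus strand, E-box at -182): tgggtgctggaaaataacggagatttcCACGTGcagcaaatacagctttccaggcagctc
ATIC (chr2:215311986-215312045, plus strand, E-box at -46): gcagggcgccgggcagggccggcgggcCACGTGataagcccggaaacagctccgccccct
DHODH (chr16:72008558-72008617, plus strand, E-box at -159): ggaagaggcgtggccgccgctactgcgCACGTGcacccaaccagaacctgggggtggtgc
DCTPP1 (chr16:30429801-30429836, minus strand, E-box at -9): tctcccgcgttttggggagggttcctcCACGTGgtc
MTHFD1 (chr14:64388311-64388352, plus strand, E-box at -15): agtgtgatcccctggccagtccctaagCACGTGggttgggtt
MTHFD1L (chr6:150866305-150866364, plus strand, E-box at -154): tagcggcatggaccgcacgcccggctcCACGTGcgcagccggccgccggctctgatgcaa
DCK (chr4:70993506-70993565, plus strand, E-box at -116): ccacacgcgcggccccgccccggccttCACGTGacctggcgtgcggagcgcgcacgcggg
SRM (chr1:11060185-11060244, minus strand, E-box at -199): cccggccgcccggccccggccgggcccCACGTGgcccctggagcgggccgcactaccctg

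Positions are counted back from the start used and give the first base of the E-box. For DCTPP1 and MTHFD1L that start lies 230 and 784 bases inside RefSeq's outermost gene end, so their E-boxes fall within the gene as annotated. NME1 held its E-box 35 bases into the transcript, and ATIC held another at 30. The remaining motifs were rarer among the members. TTTCCCGC, an E2F-type sequence, stood in the windows of PRPS2 and TYMS (6.25% of members, 2.69% of genes tested), and TTTGGCGC, also E2F-type, lay in DCK's window (3.12% against 1.16%). TGATGCAA, of the type bound by C/EBP and ATF factors, was found for MTHFD1L alone (3.12% against 0.458%), where it ends the sequence shown. The core of the antioxidant response element, TGACNNNGC, was found for PPAT, RRM1, DCK and ODC1 (12.5% against 15.3%). In DCK it starts within the E-box shown, so these overlap. A match is a description of the letters only.

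All 6 enzymes that carry the 10 steps from PRPP to IMP fell, against 24.7% of all genes tested. PPAT, which commits PRPP to purine synthesis, fell most. Its levels were 45.4, 48.3 and 51.8 CPM in the DMSO libraries and 19.2, 18.9 and 18.8 in the WFA libraries. The WFA libraries were nearly identical and lay far below every DMSO library, with a log2 fold change of -1.35 (SE 0.10, edgeR adjusted p = 7.31e-08). PFAS, which acts at the fourth step, went from 31.5 ± 0.761 to 14.4 ± 1.44 CPM (SD over 3 libraries). This was a log2 fold change of -1.13 (SE 0.12, edgeR adjusted p = 1.64e-06). GART, a trifunctional enzyme, fell by 0.99 on the log2 scale, PAICS, which is bifunctional, by 0.82, and ATIC, which closes the ring, by 0.86. ADSL, which serves both the route to IMP and the AMP branch, fell by 0.75. Their edgeR adjusted p-values lay between 2.35e-07 and 1.05e-05. None of the 6 overlapped between the groups, and 28.5% of all genes tested lay below in the same way.

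The enzymes before and after that route moved less evenly. PRPS1 and PRPS2 make PRPP itself. PRPS2 had 135, 135 and 120 CPM with DMSO and 97.0, 97.5 and 72.1 with WFA (log2 fold change -0.55, SE 0.11, edgeR adjusted p = 0.000783). PRPS1 had 69.5, 60.8 and 58.9 CPM with DMSO and 52.6, 50.3 and 46.3 with WFA. Neither gene overlapped between the groups. PRPS1 fell by 0.34 on the log2 scale (SE 0.10, edgeR adjusted p = 0.00836), a call that was lost without DMSO replicate 1 (edgeR adjusted p = 0.0588). On the AMP branch ADSS, listed as ADSS2 in RefSeq, fell by 0.74, and on the GMP branch GMPS fell by 0.78. Both had edgeR adjusted p-values under the threshold, of 2.85e-06 and 4.58e-06.

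IMP dehydrogenase, which directs IMP to GMP and is the target of mycophenolic acid, was the purine step at which neither gene passed the test. IMPDH2 had 228, 219 and 202 CPM in the DMSO libraries and 219, 221 and 211 in the WFA libraries. The groups overlapped fully, with a log2 fold change of 0.00 (95% interval -0.16 to 0.17, edgeR adjusted p = 0.971). IMPDH1 had 83.3, 81.4 and 64.9 CPM with DMSO and 64.2, 70.7 and 60.0 with WFA, also overlapping, with a log2 fold change of -0.24 (SE 0.11, edgeR adjusted p = 0.0779). With the replicate block its edgeR adjusted p-value was 0.016, and it passed under 5 of 12 alternatives in all, among them without DMSO replicate 3 (0.0139) or WFA replicate 2 (0.0456). Of the 8 tested genes among 9 others of purine metabolism, 2 were lower (25%, against 24.7% of all genes tested) and 3 higher (against 25.8%). PRPSAP1, a regulatory partner of PRPP synthetase, rose from 29.1 to 44.7 CPM (log2 fold change 0.62, SE 0.12, edgeR adjusted p = 0.000422). AK4, a mitochondrial adenylate kinase, fell by 0.63 on the log2 scale (edgeR adjusted p = 0.000343).

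In the pyrimidine pathway all 3 enzymes leading to UMP fell more than 2-fold, against 5.2% of all genes tested. CAD carries out the first 3 of the 6 steps. Its levels were 103, 86.2 and 109 CPM with DMSO and 35.0, 40.5 and 37.7 with WFA. The lowest DMSO library lay well above the highest WFA library, and the log2 fold change was -1.40 (SE 0.11, edgeR adjusted p = 6.18e-08). DHODH, the mitochondrial enzyme of the fourth step and the target of brequinar, had 17.5, 16.9 and 20.8 CPM with DMSO and 3.84, 4.83 and 4.56 with WFA. This was the largest fall of any member, 4.17-fold, with a log2 fold change of -2.06 (SE 0.16, edgeR adjusted p = 9.1e-08). It rests on at most 250 reads per DMSO library and 47, 60 and 49 per WFA library. Only 0.599% of all genes tested had a lower log2 fold change. UMPS, which completes UMP, went from 88.5 ± 3.11 to 44.0 ± 3.06 CPM (SD over 3 libraries), a log2 fold change of -1.01 (SE 0.09, edgeR adjusted p = 3.69e-07).

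The CTP synthetases, which aminate UTP, are given in every library. CTPS1 had 696, 688 and 778 CPM in the DMSO libraries and 367, 357 and 340 in the WFA libraries (log2 fold change -1.02, SE 0.09, edgeR adjusted p = 3.39e-07). CTPS2 had 29.1, 28.4 and 27.8 CPM with DMSO and 30.5, 28.0 and 28.1 with WFA. Its log2 fold change was 0.02 (95% interval -0.18 to 0.22, edgeR adjusted p = 0.878), and its sign was negative with total counts in place of TMM (-0.06) and without WFA replicate 1 (-0.02). Of 10 other pyrimidine genes, all tested, 3 were lower (30%, against 24.7% of all genes tested) and 1 higher (against 25.8%). UCK2, a uridine-cytidine kinase, fell by 1.08 on the log2 scale (SE 0.11, edgeR adjusted p = 1.84e-06), and CMPK2, a mitochondrial UMP-CMP kinase, by 1.57 (SE 0.17, edgeR adjusted p = 2.15e-06). UCK1 rose, with a log2 fold change of 0.40 (SE 0.12, edgeR adjusted p = 0.00995).

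Among the 7 dNTP enzymes, which make or break down deoxynucleotides, 5 fell (71.4%, against 24.7% of all genes tested). RRM2, the small subunit of ribonucleotide reductase that carries the radical and is the target of hydroxyurea, had 235, 186 and 220 CPM with DMSO and 93.9, 65.2 and 61.5 with WFA. All WFA libraries lay below all DMSO libraries, and the log2 fold change was -1.54 (SE 0.14, edgeR adjusted p = 4.38e-07). RRM1, the large subunit, had 323, 274 and 296 CPM with DMSO and 239, 196 and 220 with WFA, a log2 fold change of -0.45 (SE 0.10, edgeR adjusted p = 0.00136). TYMS, which makes thymidylate and is inhibited by fluorouracil, fell by 0.60 on the log2 scale (SE 0.10, edgeR adjusted p = 0.000167). DCTPP1, a pyrophosphatase of dCTP and related nucleotides, had 35.6, 34.1 and 24.3 CPM with DMSO and 13.4, 15.2 and 12.0 with WFA. Its log2 fold change was -1.21 (SE 0.15, edgeR adjusted p = 1.15e-05).

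DUT, which clears dUTP, had 164, 136 and 145 CPM with DMSO and 139, 124 and 114 with WFA. These ranges overlapped, and the log2 fold change of -0.24 missed the threshold (SE 0.10, edgeR adjusted p = 0.053). DUT passed it under 7 of 12 alternatives, among them the replicate block (edgeR adjusted p = 0.0063) and DESeq2's Wald test (adjusted p = 0.0431), and missed it under the other 5. NME1 and NME2 are nucleoside diphosphate kinases encoded side by side on chromosome 17. NME1 (chr17:51153559-51162168) had 62.2, 58.8 and 50.4 CPM with DMSO and 40.4, 39.9 and 35.8 with WFA, without overlap and with a log2 fold change of -0.56 (SE 0.10, edgeR adjusted p = 0.000377). NME2 (chr17:51165536-51171744) had only 30, 23 and 14 reads with DMSO and 22, 54 and 19 with WFA. Its log2 fold change of 0.63 (SE 0.36, edgeR adjusted p = 0.16) rested on WFA replicate 2 and was 0.06 without it. With the replicate block it was 0.60 (edgeR adjusted p = 0.0412), although the 3 pairs differed in sign (-0.22, 1.24 and 0.59). NME1 and NME2 are close paralogs, and a readthrough gene, NME1-NME2, shares exon bases with both (18.6% and 22.9% of their length in GENCODE 29) and has 0 counts in every library. How reads shared between them were counted is not given in the sources used here, so both values are uncertain.

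Of 6 other genes of the dNTP pool, all tested, 3 fell (50%, against 24.7% of all genes tested) and 0 rose (against 25.8%) in edgeR's test. At an unadjusted p-value under 0.05, 0 were higher, against 28.5% of all genes. SAMHD1, a dNTP hydrolase, went from 657, 594 and 610 CPM to 308, 301 and 253 (log2 fold change -1.11, SE 0.10, edgeR adjusted p = 3.17e-07). TYMP, thymidine phosphorylase, fell by 0.73 on the log2 scale (SE 0.16, edgeR adjusted p = 0.00167). ITPA, which hydrolyses ITP, fell by 0.36 (edgeR adjusted p = 0.0257), but lost the call without DMSO replicate 1 (0.103), WFA replicate 1 (0.0674) or WFA replicate 2 (0.0557). RRM2B, the alternative small subunit, had a log2 fold change of -0.24 (SE 0.12, edgeR adjusted p = 0.116), and was lower with the replicate block (edgeR adjusted p = 0.0119). RRM1, RRM2, TYMS, DUT and TK1 are known S phase genes, and a list of 22 other S phase genes was set beside them. In it 17 genes (77.3%) were lower, against 24.7% of all genes tested, and 1, MCM5, was higher, against 25.8%. The median was -0.56 on the log2 scale, as for the dNTP enzymes. After 6 h of WFA the study saw no change in cell cycle and no significant apoptosis. The part of the S phase list in the dNTP result was not tested.

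Another 4 members share a larger part of their exon bases with overlapping genes, and reads from the shared bases cannot be assigned with certainty. The library kit in the labels, TruSeq RNA v2, does not mark strand. In GENCODE 29, TYMS shares 39.1% of its exon bases with ENOSF1 on the opposite strand, and ENOSF1 had a log2 fold change of -0.31 (SE 0.11, edgeR adjusted p = 0.0323). DCTPP1 shares 42.1% with ZNF771, also on the opposite strand, but ZNF771 had at most 19 counts in any library. RRM2 shares 20.2% and ADSL 18.9% of exon bases with a protein-coding gene on the same strand that has no row by its GENCODE name in the table.

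Both folate members fell, against 24.7% of all genes tested. MTHFD1, the cytosolic trifunctional enzyme that makes the formyl donor for purines, had 202, 150 and 163 CPM with DMSO and 126, 93.1 and 86.8 with WFA. The log2 fold change was -0.75 (SE 0.14, edgeR adjusted p = 0.000279). MTHFD1L, which releases formate from mitochondria, had 160, 131 and 158 CPM with DMSO and 109, 98.9 and 112 with WFA, a log2 fold change of -0.49 (SE 0.10, edgeR adjusted p = 0.000633). Neither overlapped between groups. Of 16 other folate genes tested among 17, 6 were lower (37.5%, against 24.7% of all genes tested) and 4 higher (against 25.8%). Their median log2 fold change was -0.02. SLC25A32, a mitochondrial folate carrier, fell by 1.07 on the log2 scale (SE 0.11, edgeR adjusted p = 1.11e-06). MTR, methionine synthase, fell by 0.94 (SE 0.10, edgeR adjusted p = 1.53e-06).

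Salvage stood near the background. Of its 4 enzymes 1 was called lower, 25.0% against 24.7% of all genes tested. That gene was DCK, which phosphorylates deoxycytidine and activates cytarabine. DCK had 119, 108 and 104 CPM with DMSO and 79.9, 71.4 and 64.3 with WFA, with no overlap and a log2 fold change of -0.62 (SE 0.10, edgeR adjusted p = 8.35e-05). HPRT1, which salvages hypoxanthine and guanine and activates mercaptopurine, had 110, 96.7 and 103 CPM with DMSO and 136, 113 and 106 with WFA. Its log2 fold change was 0.20 (SE 0.10, edgeR adjusted p = 0.114). It passed the threshold with the replicate block (0.19, edgeR adjusted p = 0.0345) and without WFA replicate 3 (0.27, edgeR adjusted p = 0.043).

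The remaining salvage enzymes showed no detected change. APRT, which salvages adenine, had 68.6, 67.2 and 50.2 CPM with DMSO and 49.8, 76.5 and 59.8 with WFA (log2 fold change 0.00, 95% interval -0.29 to 0.28, edgeR adjusted p = 0.998). TK1, the S phase thymidine kinase, had 84.7, 66.5 and 61.9 CPM with DMSO and 72.3, 75.1 and 75.7 with WFA (log2 fold change 0.06, 95% interval -0.15 to 0.28, edgeR adjusted p = 0.652). The sign for TK1 turned with total counts in place of TMM (-0.02) and without DMSO replicate 3 (-0.03). Of 19 tested among 26 other salvage and breakdown genes, 4 were lower (21.1%, against 24.7% of all genes tested) and 4 higher (against 25.8%). Their median log2 fold change was -0.07. PNP, purine nucleoside phosphorylase, fell by 0.63 on the log2 scale (SE 0.10, edgeR adjusted p = 0.000142). UPRT, annotated as a uracil phosphoribosyltransferase, rose from 21.3 to 41.1 CPM (log2 fold change 0.95, SE 0.11, edgeR adjusted p = 4.5e-06). NT5E, the surface nucleotidase CD73, rose with a log2 fold change of 0.90 (SE 0.16, edgeR adjusted p = 0.000211).

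All 4 polyamine synthesis enzymes fell, against 24.7% of all genes tested. ODC1, the rate-limiting ornithine decarboxylase, had 345, 335 and 348 CPM in the DMSO libraries and 203, 199 and 188 in the WFA libraries. Spread within each group was small beside the difference, and the log2 fold change was -0.80 (SE 0.08, edgeR adjusted p = 1.58e-06). AMD1, which makes the aminopropyl donor, had 252, 237 and 260 CPM with DMSO and 171, 167 and 141 with WFA (log2 fold change -0.65, SE 0.09, edgeR adjusted p = 4.04e-05). SRM, spermidine synthase, fell by 0.42 on the log2 scale (SE 0.09, edgeR adjusted p = 0.0013). SMS, spermine synthase, had 85.8, 88.5 and 76.1 CPM with DMSO and 76.2, 64.8 and 59.0 with WFA. It was the only called member whose groups overlapped, with a log2 fold change of -0.32 (SE 0.10, edgeR adjusted p = 0.0174). Its call was lost without DMSO replicate 1 (edgeR adjusted p = 0.0589), DMSO replicate 2 (0.0543) or WFA replicate 3 (0.0819).

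Genes that restrain, acetylate or otherwise handle polyamines were also examined. Of 18 tested among 20, 10 were higher, against 25.8% of all genes tested, and 3 were lower, against 24.7% (median log2 fold change 0.44). The 3 that fell were AGMAT, annotated as agmatinase (-0.96), MAT2A, which makes S-adenosylmethionine (-0.67), and EIF5A, which carries the spermidine-derived hypusine (-0.28). EIF5A2, on the same list, was higher (log2 fold change 0.64, SE 0.12, edgeR adjusted p = 0.000338). ARG2, the mitochondrial arginase that produces ornithine, had 1.97, 1.97 and 1.67 CPM with DMSO and 19.0, 16.8 and 20.6 with WFA. It rose with a log2 fold change of 3.31 (SE 0.18, edgeR adjusted p = 2.03e-09). SAT1, which acetylates spermidine and spermine for breakdown or export, had 16.1, 18.6 and 16.5 CPM with DMSO and 46.3, 41.1 and 44.0 with WFA, a log2 fold change of 1.36 (SE 0.11, edgeR adjusted p = 1.36e-07). SAT2 rose with a log2 fold change of 1.10 (SE 0.14, edgeR adjusted p = 1.51e-05). The antizymes OAZ1, OAZ2 and OAZ3, which bind ornithine decarboxylase, had log2 fold changes of 0.47, 0.32 and 1.01 and passed the test. So did AZIN1, which counters antizyme, at 0.60. The value for OAZ3 rests on only 16, 14 and 13 reads with DMSO and 28, 28 and 23 with WFA. The antizymes, AZIN1, EIF5A2 and the 3 genes that fell were picked out after their values were seen. Over the lists of other genes of all pathways, 77 genes were tested. Of these 21 were lower (27.3%, against 24.7% of all genes tested) and 22 higher (against 25.8%). Their median log2 fold change was 0.005, so pooled they stood near the background, which single lists did not all do. In the polyamine list 10 of 18 were higher, and in the dNTP list 3 of 6 were lower and 0 higher. Members and lists were both chosen with earlier results known, so their contrast is a description only.

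**Figure D3:**
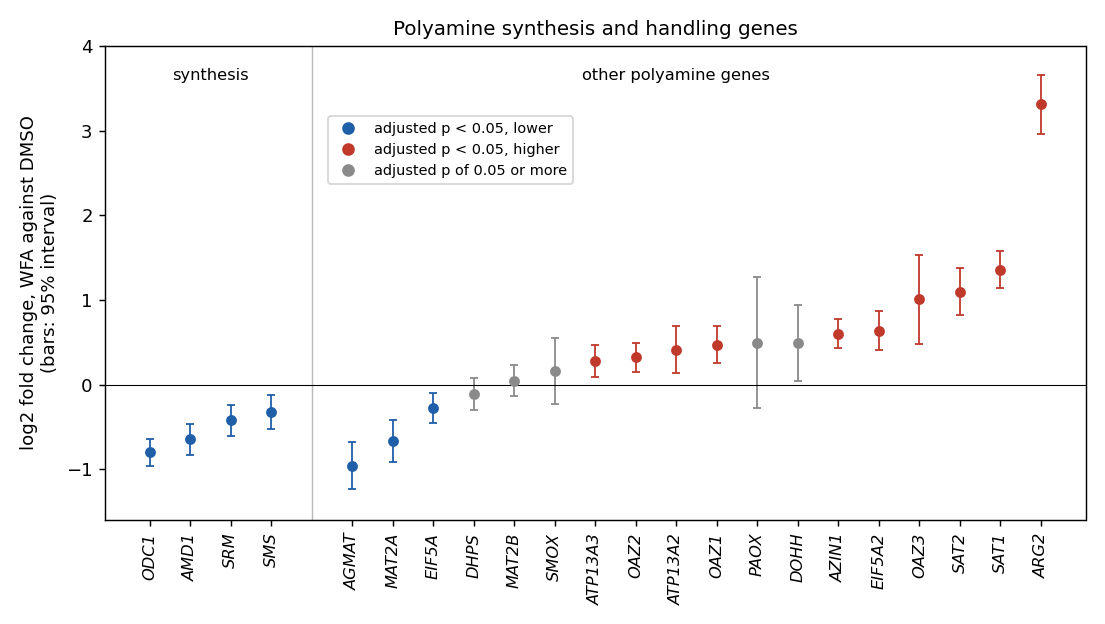
Log2 fold change between WFA and DMSO (y axis, bars for the 95% interval) for the 4 polyamine synthesis enzymes and the 18 tested genes of polyamine handling. Blue points fell, red points rose and grey points did not pass an edgeR adjusted p-value of 0.05. The synthesis enzymes lie between -0.80 and -0.32, and ARG2 stands highest at 3.31.

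Enzymes that share a reaction were also compared within each library, as the log2 ratio of their counts, which needs no scaling between libraries. Gene length enters such a ratio, so only its change between groups was read. An exact two-sided permutation test of 3 libraries against 3 cannot give a p-value under 0.1, and 7 pairs were tested. The CTPS1 to CTPS2 ratio was 4.58, 4.59 and 4.81 on the log2 scale with DMSO and 3.59, 3.67 and 3.59 with WFA. The difference was -1.04 (SE 0.08, exact p = 0.1, adjusted over 7 pairs 0.14), so the reads per CTPS2 read went from 25.3 to 12.3. For RRM2 to RRM1 the ratio was -0.46, -0.56 and -0.43 with DMSO and -1.35, -1.58 and -1.84 with WFA. That difference was -1.11 (SE 0.15, exact p = 0.1, adjusted 0.14). RRM2B to RRM2 moved by 1.32 (SE 0.16, exact p = 0.1, adjusted 0.14), from 0.42 to 1.05 reads of RRM2B per read of RRM2. The NME1 to NME2 ratio differed by -1.09 (SE 0.43, exact p = 0.1, adjusted 0.14), or by -0.69 without WFA replicate 2. None of these 4 ratios overlapped between the groups.

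The IMPDH1 to IMPDH2 ratio differed by -0.24 (SE 0.08, exact p = 0.1, adjusted 0.14), and its groups only just failed to overlap, with the lowest DMSO value at -1.639 and the highest WFA value at -1.644. PRPS1 to PRPS2 differed by 0.22 (SE 0.11, exact p = 0.2, adjusted 0.233) and MTHFD1L to MTHFD1 by 0.28 (SE 0.19, exact p = 0.3, adjusted 0.3), and both overlapped between the groups. At 3 libraries per group these tests cannot pass 0.05, so they show order and size only.

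**Figure D4:**
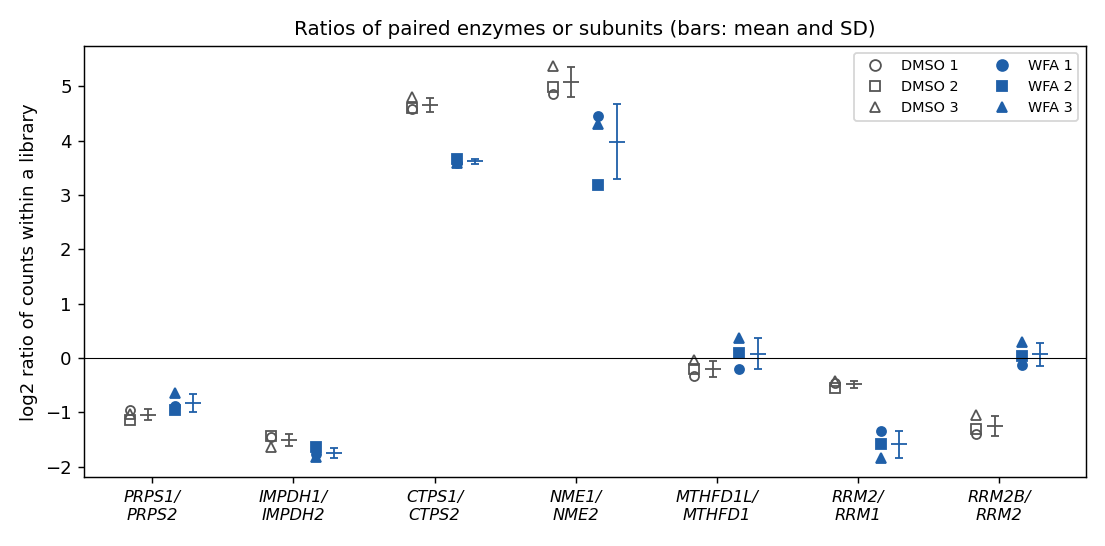
Log2 ratio of the counts of paired enzymes or subunits within each library (y axis) for 7 pairs. Open symbols are DMSO, filled symbols WFA, and bars give the mean and SD of 3 libraries. The groups separate for CTPS1/CTPS2 (4.66 against 3.62), RRM2/RRM1 (-0.48 against -1.59) and RRM2B/RRM2 (-1.25 against 0.07), and overlap for PRPS1/PRPS2 and MTHFD1L/MTHFD1.

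Levels were compared between genes per length, as CPM per kb of exon sequence in GENCODE 29, joined over all transcripts of a gene. That length can exceed the transcript in use, so the order rests partly on the annotation. CTPS1, with 11517 such bases, had 720 CPM with DMSO but 62.5 CPM per kb. TYMS, with 2470 bases, had 319 CPM. With DMSO the highest were TYMS at 129 ± 11.7 and ODC1 at 115 ± 2.23 CPM per kb (SD, 3 libraries each), and every TYMS library lay above every ODC1 library. IMPDH2 followed at 78.1 ± 4.70 and RRM1 at 71.3 ± 5.95, whose libraries overlapped. The lowest were NME2 at 0.645 ± 0.184, DHODH at 2.66 ± 0.305 and PFAS at 4.87 ± 0.118. With WFA the order at the top changed, with TYMS at 85.2 ± 9.77, IMPDH2 at 78.3 ± 1.92, HPRT1 at 72.6 ± 9.63 and ODC1 at 66.4 ± 2.65 (SD, 3 libraries each). Neighbours in that order overlapped. DHODH, at 0.637 ± 0.0741, was then the lowest by mean, and NME2, at 1.00 ± 0.563, overlapped it.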

How the data were processed

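For 6 libraries the authors deposited raw counts, whole numbers per gene symbol, made from total RNA with TruSeq RNA v2. The submitters' processing notes name hg38, bcl2fastq 2.19, Trimmomatic, Bowtie2, Picard, featureCounts and DESeq2, and how multiply mapped reads were treated is not given in the sources used here. Another 6 columns of scaled counts and the authors' own comparison (fold changes, p-values and dispersions) were not used. Of the 26485 names, 28 look like dates and were kept as given.

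Counts were fitted with edgeR 4.0.16 in R 4.3.3, with TMM factors, filterByExpr at a minimum count of 10, the quasi-likelihood test and Benjamini-Hochberg adjustment over all 12854 genes tested, at a threshold of 0.05. Standard errors are the log2 fold change divided by the square root of F. The 95% intervals use a normal approximation and are narrower than the test itself implies. For HPRT1 the interval was 0.002 to 0.394, although its unadjusted edgeR p-value was 0.0667. Log2 CPM for the pathway medians per pair used a prior count of 2 and the isozyme ratios one of 0.5. Fits were tested on simulated data first. The same-numbered libraries share a code in the labels, and their deviations from the group means correlated at 0.22, 0.33 and 0.25, so they were treated as pairs in the fit with the replicate block. Other alternatives were DESeq2 1.42.0, other scalings, no filter and leaving out each library. P-values of the main fit measure the spread between 3 experiments on a single line. The replicate block gave far smaller adjusted p-values, for RRM2 2.21e-74 against 4.38e-07 in the main fit (both edgeR). They should not be read as a measure of that spread, and calls made only with the block are weak. Total counts of 11006035 to 13872810 set the precision.

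Positions and promoters came from RefSeq (GRCh38.p14, 34 and 32 members matched) and exon lengths from GENCODE 29. The symbol ADC of the polyamine list had no row. The members and lists were chosen with earlier results of these data known. In each pathway the members with the smallest p-value, the largest fall and the largest rise, the isozyme pairs, and those that did not pass are given in full, with up to 3 genes of each list of other genes, of which some are not reported here.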

Additional observations from a re-analysis of the deposited data

How the results depend on the processing

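Of the 26 enzymes called lower, 24 kept the call and the direction under each of the 12 alternatives, PRPS1 and SMS being the exceptions, and 0 reversed. Over all 34 members the number called lower lay between 24 and 28. The replicate block called 2 members higher against 0, and leaving out each library gave 0 to 1. Apart from IMPDH1, DUT, NME2 and HPRT1, the block changed no call among the members. With total counts in place of TMM the medians were -0.85 for purine, -0.65 for dNTP, -0.71 for folate, -0.62 for polyamine and -0.051 for salvage enzymes, the last with the sign turned. Leaving out each library gave medians of -0.62 to -0.50 for dNTP, -0.72 to -0.53 for folate and -0.078 to 0.14 for salvage, and 0 to 2 members with all WFA libraries above. Members near 0 changed sign. IMPDH2 was at -0.08 with total counts, -0.008 with DESeq2's size factors, -0.016 in DESeq2's Wald test, -0.009 without a filter, and -0.043 to 0.04 with each library left out. CTPS2 was at -0.063 and TK1 at -0.02 with total counts, and -0.019 to 0.045 and -0.027 to 0.209 with each library left out. APRT was at 0.006 with upper-quartile factors and at -0.18 to 0.14 with each library left out. The causes were not tested. The NME2 counts reached 54 at most, and its standard error of 0.36 was the largest among the members.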
